A study of Mus musculus with 58 samples.

Results

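The genes described here are 45 patterning regulators that lie outside the Hox clusters, chosen by symbol from a count table of 24077 mouse genes. They belong to the sine oculis (Six2, Six3, Six4, Six6), Irx, Lhx, Pax, Dlx, Msx, Nkx, Emx, En, Gbx, Barx, paired-like (Otx, Gsc, Shox, Pitx, Alx, Prrx) and Meis families. Most encode a homeodomain, a DNA-binding fold that reads short AT-rich sites. Pax1 and Pax9 are grouped with them by family, since their proteins carry a paired domain and no homeodomain. Genes of this kind are switched on region by region after gastrulation and lay out the brain, eyes, limbs, face and gut, and their CpG-rich starts are classical targets of Polycomb repression.

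Polycomb repressive complex 1 comes in variants that differ in their PCGF subunit, and all place ubiquitin on histone H2A (H2AK119ub1). PCGF1 is the subunit of PRC1.1, which KDM2B brings to unmethylated CpG islands, and PCGF6 is the subunit of PRC1.6, which holds the DNA-binding proteins MGA, MAX and E2F6. RNA was sequenced from fully grown oocytes (FGO) of strain B6.129, either wild type (CTR, 2 libraries) or Pcgf1/6 double knockout (KO, 2 libraries). It was also sequenced from morulae and from extraembryonic ectoderm (ExE), the trophoblast tissue next to the epiblast after implantation, both from B6.129 mothers and PWK fathers. Morulae were wild type (CTR, 2 libraries) or Pcgf1/6 double maternal knockout (matKO, 2 libraries), and ExE was wild type (CTR, 2 libraries) or matKO (4 libraries). A matKO embryo lacks the products laid down by a mutant egg and has a father of another strain, whose genotype at these genes the labels do not state. The labels name no allele design, deleter strain or age of the females, and nothing says that replicates came from separate animals. P-values therefore measure only the spread between these libraries, which may be technical.

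The FGO libraries held 19805264 to 26364085 counts each. The embryo tables split reads by parental allele, and the sums of maternal and paternal counts came to 1299715 to 1685510 in morula and 3397585 to 4361832 in ExE. Reads that could not be assigned to a parent are left out of those sums, so a gene at 0 there may simply lack a usable strain difference; Pou5f1, a defining pluripotency gene, was at 0 in every embryo library. Levels are given as CPM (counts scaled to a library total of 1000000) and are not comparable between oocytes and embryos. A count of 3 corresponded to 0.114 to 0.151 CPM in FGO, 1.78 to 2.31 CPM in morula and 0.688 to 0.883 CPM in ExE. Pcgf1 stood at 1406 and 1100 CPM in the 2 CTR oocyte libraries and at 34.9 and 22.8 CPM in KO, and Pcgf6 at 396 and 429 CPM against 177 and 220 CPM. In embryos the allele-assigned reads of Pcgf1 were too few to read (1 count in CTR and 8 in matKO morulae, 0 and 1 in ExE). Pcgf6 was at 198 and 239 CPM in CTR and 215 and 200 in the libraries labelled matKO in morula, and at 296 and 265 against 199, 177, 208 and 175 in ExE. Of its reads 428 of 713 were maternal in CTR and 240 of 548 in matKO morulae, and 1491 of 2405 and 1049 of 2887 in ExE, so the maternal part was smaller but not absent in matKO. Counts over a whole gene do not show whether a deleted part is missing, and a paternal copy can be read in either group, so these values are no full check of the matKO label. Oocyte markers were abundant in all 4 FGO libraries (18474 to 24753 CPM summed over 12 genes), and 18 granulosa and stroma markers summed to 61.1 and 70.2 CPM in CTR and 56.5 and 54.9 CPM in KO. Replicate 3 of ExE matKO stood apart from the rest in its autosomal maternal share. This share was 35.1%, against 50.5 to 51.5% in the other embryo libraries. ExE test results without it are given for Irx2, Dlx3 and Six2. Other ExE values include it unless said otherwise. The X-linked maternal share also differed among ExE libraries, at 95.8 and 96.4% in CTR and 99.9, 56.9, 61.2 and 99.8% in matKO replicates 1 to 4. All 45 genes are autosomal.

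In wild-type oocytes the set was mostly, but not wholly, silent. Of the 45 genes, 16 had no count in either CTR library, 7 more had 1 to 3 counts in both together, and 7 had more than 100. Those 7 were Meis2, Gbx2, Emx1, Emx2, Otx1, Lhx2 and Pax2. Meis2, a TALE-class partner of other homeodomain proteins, gave 18056 and 19929 counts (685 and 775 CPM), and Gbx2, a regulator of the midbrain-hindbrain border, gave 1732 and 1556 (65.7 and 60.5 CPM). The description of the whole set as silent in control oocytes thus does not hold for these genes. At the other end, 4157 of the 24077 genes of the table had no count in any of the 14 libraries. Of the 45, 9 had none: Six3, Six6, Irx6, Lhx1, Lhx4, Pax1, Dlx1, Nkx2-2 and Alx4. These include the main forebrain and eye regulators Six3 and Six6 and the head organiser gene Lhx1, and loss of Pcgf1 and Pcgf6 gave no read of any of them.

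**Figure D1:**
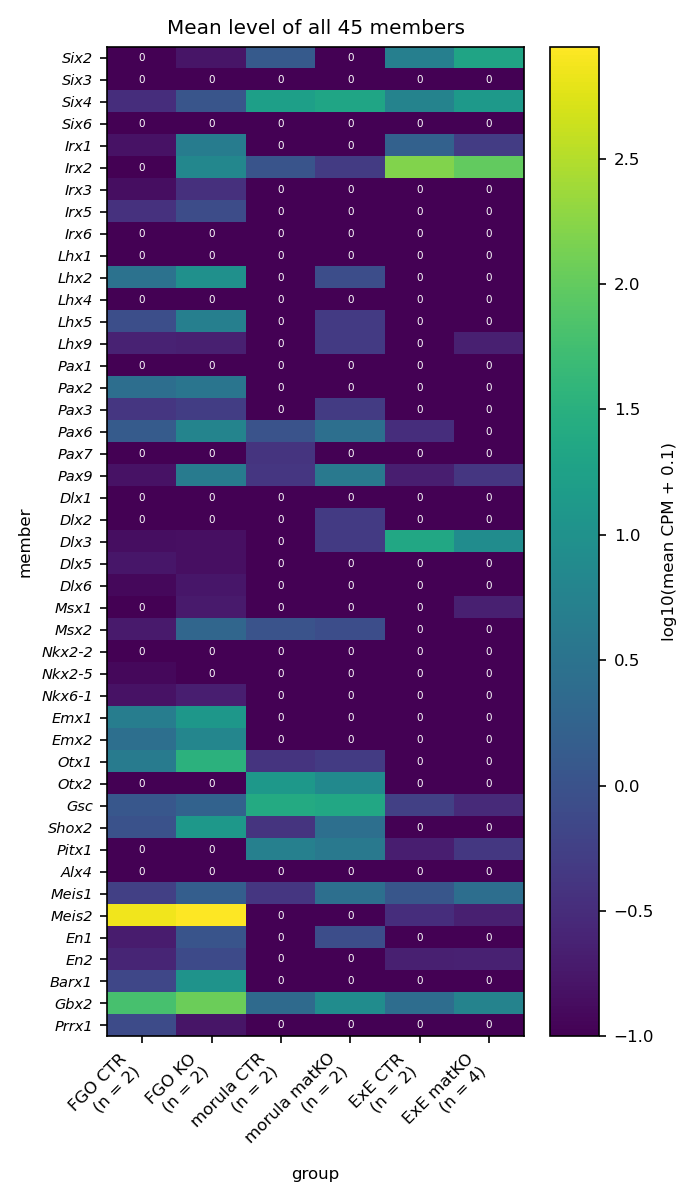
Mean level of the 45 genes in each of the 6 groups, as log10(mean CPM + 0.1), with a printed 0 where no read was counted. Colours are to be read along a row and within a stage, since transcript length differs between genes and embryo counts are allele-assigned; the FGO KO column holds more lit rows than FGO CTR, and 9 rows are 0 throughout.

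Loss of Pcgf1 and Pcgf6 raised 8 of the 45 genes in oocytes, and lowered none. They were Irx2, Msx2, Barx1, Shox2, En1, Otx1, Lhx5 and Lhx2, all with an adjusted p under 0.05 in edgeR's quasi-likelihood test with Benjamini-Hochberg adjustment over 13459 genes. Over all genes tested 5.35% were called higher and 1.87% lower. Only 21 of the 45 had enough counts to be tested, and 8 of 21 is 38.1%. The estimate was above 0 for 20 of the 21, and 17 had an unadjusted p under 0.05. Over all 13459 genes 50.3% of estimates were above 0, and 2897 (21.5%) had an unadjusted p under 0.05. Their median log2 change was 2.01, against 0.00 over all genes tested, and it is the same with Irx2 set to its lower bound. Genes that passed the count filter only because KO reads were present had to lie above 0, so these shares describe the tested genes and not the set of 45. In 22 of the 45 both KO libraries were above both CTR libraries, and in 1, Prrx1, both were below; over the whole table groups did not overlap in 34.5% of genes.

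The starts of 5 of the 45 genes are shown, 4 that rose from little or nothing and 1, Six3, that never gave a read. These 5 do not stand for the whole set. Each line gives the 250 bases before a RefSeq start in build GRCm38.p6, 5′ to 3′ on the gene's own strand, with CpG dinucleotides in capitals. The positions are chr13:72628570-72628819 (+) for Irx2, chr13:53472781-53473030 (-) for Msx2, chr3:66981772-66982021 (-) for Shox2, chr13:48662786-48663035 (+) for Barx1 and chr17:85620584-85620833 (+) for Six3. They hold 19, 16, 11, 40 and 10 CpGs in that order.
Irx2: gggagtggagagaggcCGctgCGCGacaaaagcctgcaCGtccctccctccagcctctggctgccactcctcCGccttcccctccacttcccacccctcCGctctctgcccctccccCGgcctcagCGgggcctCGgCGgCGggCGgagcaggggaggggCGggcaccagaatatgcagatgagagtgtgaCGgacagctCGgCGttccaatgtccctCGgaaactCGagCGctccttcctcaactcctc
Msx2: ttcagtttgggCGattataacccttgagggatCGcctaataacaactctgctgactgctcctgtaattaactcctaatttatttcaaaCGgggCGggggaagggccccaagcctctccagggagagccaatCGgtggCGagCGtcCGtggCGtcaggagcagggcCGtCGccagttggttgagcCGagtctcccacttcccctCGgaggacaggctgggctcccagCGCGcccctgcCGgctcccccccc
Shox2: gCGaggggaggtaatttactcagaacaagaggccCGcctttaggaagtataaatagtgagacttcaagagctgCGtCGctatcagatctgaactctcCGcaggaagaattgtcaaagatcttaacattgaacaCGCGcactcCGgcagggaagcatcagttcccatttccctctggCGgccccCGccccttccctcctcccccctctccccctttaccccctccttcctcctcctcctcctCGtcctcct
Barx1: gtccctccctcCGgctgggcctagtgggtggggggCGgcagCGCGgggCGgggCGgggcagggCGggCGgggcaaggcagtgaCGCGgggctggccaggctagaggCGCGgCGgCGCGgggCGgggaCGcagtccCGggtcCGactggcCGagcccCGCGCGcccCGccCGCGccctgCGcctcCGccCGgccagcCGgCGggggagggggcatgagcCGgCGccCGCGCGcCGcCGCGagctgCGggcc
Six3: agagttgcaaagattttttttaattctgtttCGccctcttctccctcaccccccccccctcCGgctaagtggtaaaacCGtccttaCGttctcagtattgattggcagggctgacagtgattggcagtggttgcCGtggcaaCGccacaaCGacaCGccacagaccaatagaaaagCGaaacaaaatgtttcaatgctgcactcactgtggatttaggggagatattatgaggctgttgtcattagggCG

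RefSeq starts were at hand for 33 of the 45 genes (41 starts) and not for Irx1, Irx5, Irx6, Lhx5, Pax3, Dlx3, Dlx5, Dlx6, Otx1, Pitx1, Alx4 and En2. In windows from 250 bases before to 50 bases after the start, the 41 starts held a median of 18 CpGs, against 7 over all 32851 starts. A CpG observed-to-expected ratio over 0.6 together with a GC content over 50% was met by 29 of the 41 (70.7%) and by 33.3% of all starts. The 7 starts of the 6 genes that rose in KO oocytes and had an entry held 11 to 50 CpGs (median 25), and all 7 met that rule. The 7 starts of genes that gave no read in any library held a median of 19, and 6 of the 7 met it. The exception was Six3, the gene printed above, whose window held 14 CpGs at a GC content of 50.0%. CpG-rich starts were thus found both among the genes that rose and among those that gave no read. Of motifs searched on both strands, CACGTG (the E-box bound by MAX) occurred in 4 of the 41 windows, those of Dlx2, Nkx2-2, En1 and Gbx2 (9.76%, against 7.15% of all). TCCCGC, an E2F motif, occurred in 10 (24.4%, against 19.98%). TATAAA occurred in 4, those of Otx2, Gsc, Shox2 and Meis2 (9.76%, against 13.6%), and TCACACC, a T-box motif, in 0 (3.98% of all). TATAAA lies in the printed Shox2 stretch, on the strand shown. CACGTG and TCCCGC each contain a CpG. A match describes letters only.

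**Figure D2:**
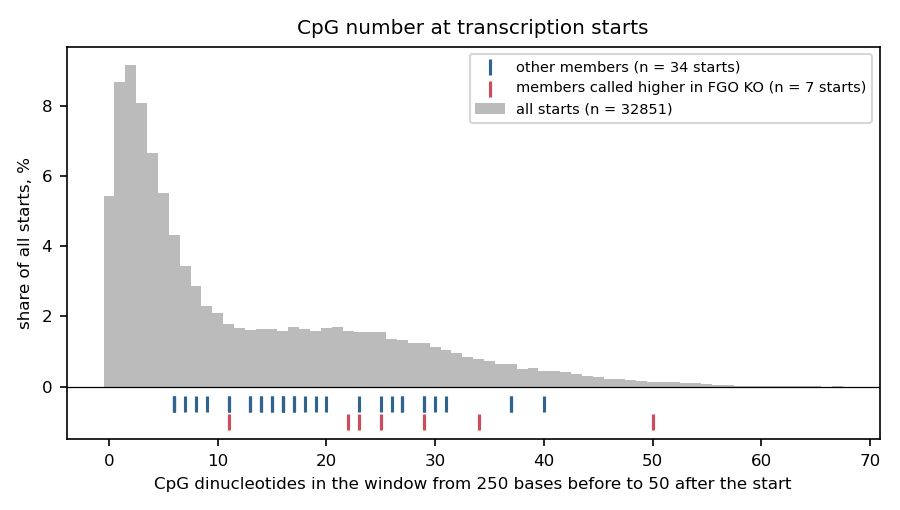
Number of CpG dinucleotides around transcription starts, from 250 bases before to 50 after. Grey bars give the share of all 32851 RefSeq starts in percent, blue ticks the 34 starts of genes not called in oocytes and red ticks the 7 starts of genes called higher in FGO KO, which lie between 11 and 50.

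The Iroquois genes pattern the neural plate, heart and limbs and sit in 2 genomic clusters. Of the 45, Irx1 and Irx2 lie on chromosome 13 and Irx3, Irx5 and Irx6 on chromosome 8. Irx4, outside the 45, also lies on chromosome 13 and had 0 counts in CTR oocytes and 1 in KO. Irx2 (chromosome 13, 72624430 to 72634196) had 0 counts in both CTR libraries and 199 and 85 counts (9.04 and 4.29 CPM) in KO. Set against a floor of 3 counts over the CTR group, that is at least 118-fold higher (edgeR quasi-likelihood test, adjusted p = 0.0012). Its neighbour Irx1 had 3 and 0 counts in CTR and 186 and 9 in KO. The KO libraries lay above both CTR libraries but differed from each other so widely that the gene was not called (adjusted p = 0.198). The ratio of its summed CPM was 81.0, with a 95% exact interval of 27.3 to 396 that covers counting error only. Irx1 was called without KO replicate 2 (adjusted p = 0.0017) and in a fit of all 3 stages together (0.0394), and without KO replicate 1 its change rested on 9 reads. In the other cluster Irx5 gave 7 and 7 counts in CTR and 20 and 11 in KO (log2 change 1.32, SE 0.60, adjusted p = 0.248). Irx3 gave 0 and 2 against 9 and 2 counts, too few to test, and Irx6 none.

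Among the LIM-homeodomain genes both tested members rose. Lhx5, a regulator of forebrain and hippocampal development, stood at 0.834 and 0.739 CPM in CTR and 5.18 and 4.75 CPM in KO (log2 change 2.55, SE 0.35, adjusted p = 0.0049). Lhx2, needed for eye and cortex formation, stood at 3.15 and 2.68 CPM in CTR and 11.6 and 7.12 CPM in KO (log2 change 1.57, SE 0.30, adjusted p = 0.0164). The groups were well apart for both genes. The Lhx2 call was lost without KO replicate 1 (adjusted p = 0.0577) and in a fit that took its spread from all 3 stages (0.110). Lhx9, a gonad and limb gene, had 1 and 6 counts in CTR and 3 and 2 in KO. Lhx1 and Lhx4 had none.

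Of the 7 paired-like genes 4 were tested and 2 rose. Otx1, an anterior brain gene, rose from 5.80 and 2.61 CPM to 40.7 and 26.6 CPM (log2 change 2.88, SE 0.37, adjusted p = 0.0058). Shox2, which acts in limb growth and the cardiac pacemaker, rose from 0.986 and 0.817 CPM to 16.6 and 8.38 CPM (log2 change 3.66, SE 0.37, adjusted p = 0.0013). For both, the lower KO library was more than any CTR library by a wide margin. Otx2, the paralogue of Otx1 that is needed earlier for the forebrain, had no count in any of the 4 oocyte libraries. Gsc, an organiser gene, overlapped between groups at 1.29 and 0.894 CPM in CTR and 2.04 and 1.21 CPM in KO (log2 change 0.46, adjusted p = 0.623). Prrx1, a limb mesenchyme gene, was the only tested member with a lower estimate. It had 24 and 12 counts in CTR and 3 and 0 in KO, a ratio of 0.104 with a 95% exact interval of 0.0205 to 0.329 for counting error, and was not called (adjusted p = 0.0791). Pitx1 and Alx4 had none.

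Of the Msx, Dlx and Nkx families, which shape the face, limbs, forebrain, heart and ventral neural tube, 1 gene of 10 could be tested. Msx2, a target of BMP signalling in limb and skull, rose from 3 and 2 counts (0.114 and 0.0778 CPM) to 46 and 33 counts (2.09 and 1.67 CPM), with a log2 change of 4.12 (SE 0.60, adjusted p = 0.0060). Its paralogue Msx1 had 0 and 0 counts in CTR and 4 and 0 in KO. No Dlx gene reached more than 3 counts in any oocyte library. Nkx2-5, the cardiac regulator, had 1 count in all 4 libraries together, Nkx6-1, of the pancreas and motor neurons, had 2 and 1 against 4 and 1, and Nkx2-2 had none.

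Barx1, En1, En2, Gbx2, Emx1 and Emx2 were tested except for En2, and all 5 estimates were positive. Barx1, which patterns the stomach and the molar field, rose from 0.417 and 0.778 CPM to 15.9 and 5.45 CPM (log2 change 4.01, SE 0.56, adjusted p = 0.0069). En1, of the midbrain and ventral limb, rose from 2 and 3 counts to 30 and 11 (log2 change 3.13, SE 0.75, adjusted p = 0.0412). Both KO libraries were above both CTR libraries, but the En1 call rested on few reads. It was lost with DESeq2 (adjusted p = 0.0739) and without CTR replicate 1 (0.164), CTR replicate 2 (0.105) or KO replicate 1 (0.277). Its paralogue En2 gave 7 and 1 counts in CTR and 22 and 7 in KO. Emx1 and Emx2, cortical patterning genes with a baseline in wild-type oocytes, had positive estimates without being called. Emx1 stood at 3.30 and 5.99 CPM against 14.7 and 9.69 (log2 change 1.28, SE 0.33, adjusted p = 0.0554) and Emx2 at 3.79 and 1.59 against 7.45 and 5.50 (1.16, adjusted p = 0.143). Gbx2 was at 153 CPM in KO replicate 1 and 76.9 in KO replicate 2, above the 60.5 and 65.7 CPM of CTR (log2 change 0.74, SE 0.25, adjusted p = 0.131). All 3 calls turned with the settings in edgeR. Emx1 and Gbx2 were called without KO replicate 2 (adjusted p = 0.0406 and 0.0031), Emx1 without CTR replicate 2 (0.0076) and Emx2 without CTR replicate 1 (0.0143). With no filter on low counts Emx1 (0.0025), Emx2 (0.0366) and Gbx2 (0.0481) were all called, and DESeq2 called Emx1 (0.0102).

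No Pax, Meis or sine oculis gene was called in oocytes. Pax9, of the pharyngeal pouches and teeth, had 1 and 2 counts in CTR and 170 and 14 in KO, a ratio of 76.4 (95% exact interval 25.7 to 374, counting error only), with an adjusted p of 0.0678; it was called with DESeq2 (1.5e-05), in the fit of all 3 stages (0.0063) and without KO replicate 2 (6.7e-04). Pax6, the eye and brain regulator, differed by a larger ratio between its CTR libraries (10 and 55 counts) than between its KO libraries (88 and 155). Its log2 change was 2.16 (SE 0.79, adjusted p = 0.191), and it was called with DESeq2 (0.0175) and without CTR replicate 2 (2.9e-04). Pax2, of kidney and midbrain, barely separated at 2.12 and 2.92 CPM against 3.23 and 3.43 (log2 change 0.31, adjusted p = 0.676). Pax3 had 8 and 9 counts against 7 and 10, and Pax7 and Pax1 none. Six4, which acts in muscle and kidney, gave 11 and 1 counts in CTR and 29 and 14 in KO (log2 change 2.01, SE 0.82, adjusted p = 0.201, and 0.0383 without CTR replicate 1), and Six2, a nephron progenitor gene, 0 and 0 against 3 and 0. Meis1 stood at 0.493 and 0.428 CPM against 1.23 and 1.57 (log2 change 1.50, adjusted p = 0.128). Meis2, at 685 and 775 CPM in CTR and 975 and 786 in KO, had an estimate of 0.16 (adjusted p = 0.614).

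**Figure D3:**
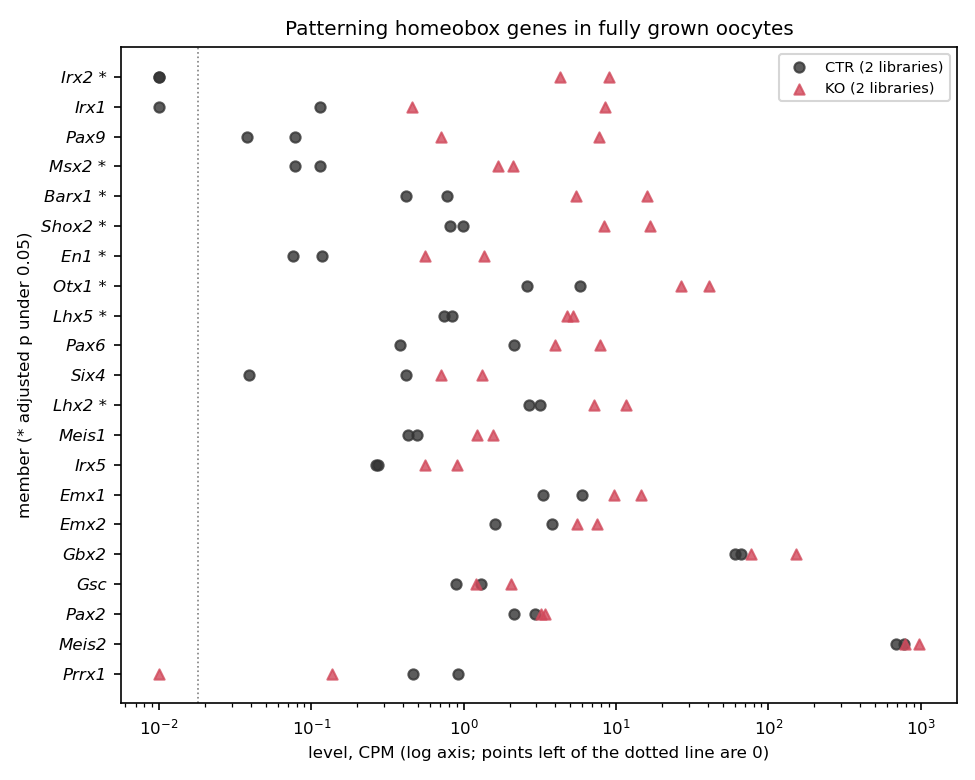
CPM of the 21 tested genes in each fully grown oocyte library, on a log axis, with CTR as dots and KO as triangles, and zeros drawn left of the dotted line. The 8 genes with an asterisk were called higher, and for Irx1 and Pax9 the 2 KO triangles lie far apart.

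**Figure D4:**
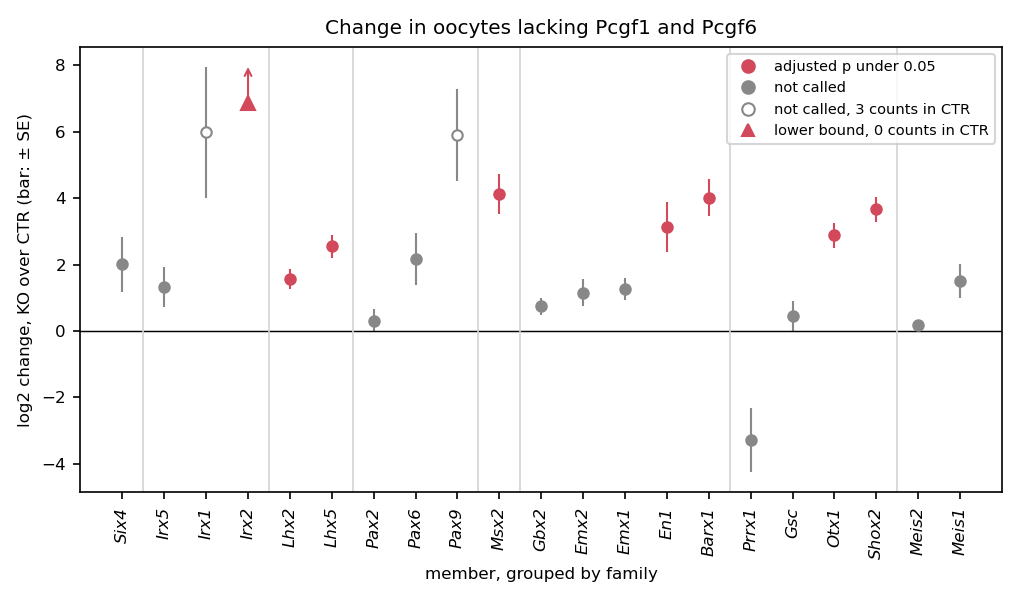
Log2 change in KO over CTR oocytes for the 21 tested genes, grouped by family, with bars of 1 SE. Red marks the 8 called genes, open symbols genes with 3 counts in CTR, and the triangle for Irx2 its lower bound; Prrx1 is the 1 gene below 0.

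The 2 KO libraries did not carry these changes equally. Among the 21 tested genes 18 had a higher CPM in KO replicate 1 than in KO replicate 2, by a median ratio of 1.63, whereas 12 were higher in CTR replicate 1 than in CTR replicate 2. The number called higher was 6 without KO replicate 1 and 12 without KO replicate 2. The oocyte marker sum was 18474 CPM in KO replicate 1 and 24287 CPM in KO replicate 2, beside 24753 and 24202 CPM in CTR. Its part in the difference between the 2 KO libraries was not tested. In these bulk samples a rise in a fraction of the oocytes cannot be told apart from a smaller rise in all of them.

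In morulae the genes that rose in KO oocytes were barely detected. Lhx2, Lhx5, Otx1, En1 and Barx1 gave at most 2 counts in either group, Msx2 gave 3 in CTR and 2 in matKO, and Irx2 gave 3 and 1. Shox2 had 1 and 0 counts in CTR and 2 and 5 in matKO, a ratio of 8.65 with a 95% exact interval of 1.11 to 390. Pax9, which was not called in oocytes, had 0 and 1 counts in CTR and 7 and 3 in matKO, a ratio of 12.4 (1.76 to 536). Both intervals cover counting error only, and neither gene had enough counts to be tested. In 6 of the 45 both matKO libraries were above both CTR libraries, and in 2 both were below. Over the whole table groups did not overlap in 26.9% of genes. In all, 24 of the 45 genes were at 0 in the 4 morula libraries and 39 had at most 3 counts in CTR. At least 1 count in these libraries was found for 21 of the 45, against 15097 of all 24077 genes.

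Only 4 genes could be tested in morulae, and none was called (edgeR quasi-likelihood test; background 0.132% of 9063 genes, 0.0221% higher and 0.110% lower). None of the 4 had an unadjusted p under 0.05 (19.8% of all genes did), and DESeq2 called none. Gsc was at 17.2 and 34.0 CPM in CTR and 27.7 and 17.8 in matKO (log2 change -0.13, SE 0.46). Six4 was at 13.6 and 19.5 CPM against 26.2 and 14.8 (0.34, SE 0.46). These 2 genes overlapped between groups. Otx2, which is on in the pluripotent lineage, was at 15.4 and 9.45 CPM in CTR and 1.54 and 13.4 in matKO (log2 change -0.69, SE 0.83), so its lower mean came from 1 library. Gbx2 was at 0 and 4.41 CPM in CTR and 6.92 and 9.65 in matKO (1.94, SE 1.07, adjusted p = 0.355), without overlap but on 7 against 22 counts. Pitx1, too low to test, stood at 4.75 and 5.67 CPM in CTR and 3.85 and 3.71 in matKO.

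Few of the 45 genes were on in ExE. At least 1 count in the 6 libraries was found for 15 of them, against 13137 of all 24077 genes. Irx2, undetected in wild-type oocytes, stood at 178 and 142 CPM in CTR, and Dlx3, a placental regulator, at 13.7 and 33.2 CPM, while 30 of the 45 genes gave no read in any of the 6 ExE libraries. None of the 6 tested genes was called between matKO and CTR (edgeR quasi-likelihood test; background 0% of 8386 genes in either direction). At an unadjusted p under 0.05 there were 2, Six2 and Six4 (13.8% of all genes), and DESeq2 called 1, Six2, among 141 genes higher of 8386 (1.68%).

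Irx2 was at 60.4, 63.7, 141 and 128 CPM in the 4 matKO libraries (log2 change -0.73, SE 0.36, adjusted p = 0.411). The highest matKO library lay just under the lower CTR library, and the other pair was well below. Dlx3 was at 0.733, 10.7, 15.9 and 5.00 CPM in matKO and overlapped with CTR (log2 change -1.58, SE 0.89, adjusted p = 0.484). Without matKO replicate 3 the estimates were -0.96 (adjusted p = 0.174) for Irx2 and -2.14 (adjusted p = 0.290) for Dlx3. A list of 11 ectoplacental cone and giant cell markers, the neighbouring trophoblast of the dissected piece, summed to 3023 and 5479 CPM in CTR and to 449, 1632, 2438 and 888 CPM in matKO replicates 1 to 4, with Prl3d1, Prl2c2, Gcm1, Rhox6 and Rhox9 at 0 in all. Among the 4 matKO libraries Dlx3 stood in the same order as that sum. Its part in the Irx2 and Dlx3 values was not tested.

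Six2 was above both CTR libraries in all 4 matKO libraries, at 8.06 and 1.83 CPM in CTR and 27.9, 10.2, 16.5 and 24.7 in matKO (log2 change 1.99, SE 0.57, adjusted p = 0.219). DESeq2 gave an adjusted p of 0.0105 for it, and without matKO replicate 3 edgeR gave 0.150. The 2 CTR libraries differed widely, and the adjusted p was 0.964 without CTR replicate 2 and 0.110 without CTR replicate 1. Six4 stood at 9.01 and 2.52 CPM in CTR and at 10.5, 14.2, 10.8 and 18.5 in matKO (1.21, SE 0.46, adjusted p = 0.297). Gbx2 was at 4.50 and 0.459 CPM against 5.38, 4.75, 7.02 and 5.59 (1.18, adjusted p = 0.428) and Meis1 at 0.948 and 1.15 CPM against 4.40, 2.50, 1.35 and 2.06 (1.25, adjusted p = 0.444). All 4 genes were without overlap between groups, which held for 5 of the 45 genes in this direction and 3 in the other, and for 10.4% of all genes. A list of 12 visceral endoderm markers summed to 4.27 and 2.29 CPM in CTR and 8.91 to 30.6 CPM in matKO. Of these, Apoa1, Hnf4a and Cer1 were at 0 in every ExE library. A list of 12 epiblast and mesoderm markers summed to 677 and 454 CPM in CTR and 627 to 988 CPM in matKO. Of the 12, 8 were at 0 in CTR, and Pou5f1, Mesp1, Fgf8, Nkx1-2 and Sox1 were at 0 in every ExE library, so that sum rests on few genes. Their part in the Six2, Six4, Gbx2 and Meis1 values was not tested. Irx1 stood at 0.237 and 2.98 CPM in CTR and 0 to 1.08 CPM in matKO.

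**Figure D5:**
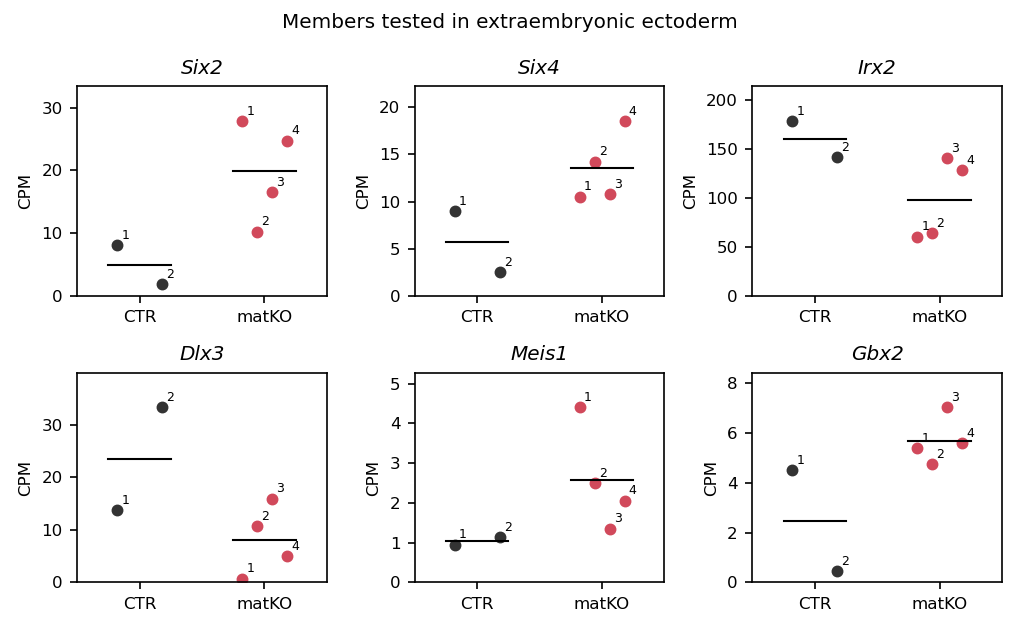
CPM of the 6 tested genes in each extraembryonic ectoderm library (numbers are replicates, lines are means, axes start at 0). Irx2 and Dlx3 have lower matKO means and Six2, Six4, Meis1 and Gbx2 higher ones, and none of the 6 was called.

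The effect of the genotype itself was compared between stages with an interaction term. In edgeR's quasi-likelihood test with Benjamini-Hochberg adjustment, Irx2 was the only gene called of 19 tested in FGO and morula. Its matKO effect in morula was lower than its KO effect in FGO (log2 difference -10.63, SE 2.40, adjusted p = 0.0429). Of all genes 2.62% were called, 2.24% in that direction and 0.380% in the other. The morula side of the Irx2 estimate rests on 4 reads. The call was lost without CTR replicate 2 of morula (adjusted p = 1.00), without morula matKO replicate 1 (0.0687) or replicate 2 (0.0667), without either FGO CTR replicate (0.116 and 0.114), and with DESeq2 size factors (0.0510). Without FGO KO replicate 1 the gene had too few counts to be tested. Irx2 was likewise the only one called of 17 tested in FGO and ExE, with a lower effect in ExE (-10.09, SE 1.21, adjusted p = 0.0027). Of all genes 2.12% were called, 1.66% in that direction and 0.467% in the other. This Irx2 call was kept when any 1 library was left out. Both fitted differences depend on the 0 counts of Irx2 in CTR oocytes and give no size. Irx1 had a difference of -7.83 between ExE and FGO (SE 2.18, adjusted p = 0.109), called with DESeq2 (0.0144) and without FGO KO replicate 2 (0.0167). Msx2 differed by -4.30 between morula and FGO (SE 1.63, adjusted p = 0.211). For Lhx2, Otx1, Shox2, Barx1 and others the embryo groups held too few reads for an estimate of use, so a weaker effect in embryos was not shown for them.

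Where these genes are on in unperturbed embryos was read from CTR ExE against CTR morula, which share the CTR libraries of the comparisons above. Of 7 genes tested 5 differed by edgeR's quasi-likelihood test, a share near that of all genes (67.5% called, 27.8% higher and 39.7% lower in ExE). Each of the 5 had at most 4 counts in its lower group. They passed the count filter through the group where they are high, which fixed their direction beforehand. The values below therefore describe these genes and are no result about the set. Irx2 and Dlx3 were higher in ExE. Irx2 gave 1370 counts against 3, a ratio of 174 (95% exact interval 59.5 to 846, counting error only; adjusted p = 7.8e-08), and Dlx3 gave 203 against 0, at least 25.8-fold higher (adjusted p = 7.2e-05). Otx2, Gsc and Pitx1 were lower. Otx2 gave 41 counts in CTR morula and 0 in CTR ExE, at least 35.8-fold lower in ExE (adjusted p = 1.1e-04). Gsc fell from 83 to 4 counts (log2 change -5.01, SE 0.68, adjusted p = 4.3e-05) and Pitx1 from 17 to 1 (ratio 0.0224, interval 5.4e-04 to 0.143, adjusted p = 0.0016). Six4 (-0.87, adjusted p = 0.204) and Gbx2 (0.82, adjusted p = 0.587) were not called.

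Some of the embryo genes drew their reads unequally from the parental alleles, where the mother is always B6.129 and the father PWK, so parent and strain cannot be told apart. Intervals are 95% exact binomial and cover counting error only. Of the Otx2 reads 7.32% were maternal in CTR morulae (3 of 41, interval 1.54 to 19.9%) and 15.0% in matKO (3.21 to 37.9%). Of the Six4 reads 22.2% were maternal in CTR morulae (12.0 to 35.6%), 31.5% in matKO morulae (19.5 to 45.6%), 20.4% in CTR ExE (10.2 to 34.3%) and 26.6% in matKO ExE (20.7 to 33.2%). Irx2 in ExE was near equal, at 51.2% maternal in CTR (48.5 to 53.8%) and 46.2% in matKO (43.6 to 48.8%), and so was Dlx3 at 48.8% (41.7 to 55.9%) and 42.6% (33.7 to 51.9%). The matKO shares include replicate 3, whose maternal share was low genome-wide, and the test scaled each allele to its own total. In that test the genotype changed the allelic ratio of none of the 2 genes tested in morula (Six4, Gsc) or the 4 in ExE (Six2, Six4, Irx2, Dlx3). The estimates, as log2 of paternal over maternal, ran from -0.81 for Six4 in morula to -0.03 for Irx2 in ExE. In edgeR no unadjusted p was under 0.05; DESeq2 was not run on alleles. Of all genes tested 0.0393% were called in morula, all towards the paternal allele, and 0.0729% in ExE (0.0292% towards the paternal and 0.0438% towards the maternal allele).

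A wider list of homeobox genes outside the Hox clusters, none of them among the 45, was read in the same oocyte fit. Of these 82 genes 31 were tested, and 9 rose and none fell (median log2 change 0.71). Over all genes tested 5.35% were called higher and 1.87% lower, with a median of 0.00. Here too, genes that passed the count filter only because KO reads were present had to lie above 0. This also holds for the cofactors below. Among the 9 genes that rose, Lbx2, Hmx1 and Nkx6-2 had some of the smallest p. Lbx2 rose from 5.54 and 4.28 to 83.6 and 60.2 CPM (log2 change 3.76, SE 0.22, adjusted p = 1.1e-04). Hmx1, of the eye and ear, rose from 0.114 and 0.0778 to 10.5 and 4.85 CPM (6.11, SE 0.55), and Nkx6-2, of the neural tube, from 2.24 and 2.37 to 10.5 and 7.22 CPM (1.83, SE 0.29). Among 25 cofactors 20 were tested, 8 had a positive estimate (median log2 change -0.03 over the 20) and 3 rose. Among them Ssbp4, of the LIM-domain cofactor complex, rose from 38 and 47 to 158 and 144 counts, and the corepressor gene Tle3 from 0 and 0 to 30 and 13. None of these lists had a called gene in morula or in ExE.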

How the data were processed

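The deposited table holds whole-number counts per gene, per the file headers: total counts for FGO, and maternal and paternal counts for morula and ExE, which were summed. The submitters' processing notes list STAR 2.7.3, RSEM 1.3.1 and build mm10 without assigning them to steps; neither the counter of this table nor the rule for assigning reads to a parent is stated (not given in the sources used here). Per the labels' protocols, cDNA was made with SMART-Seq v4 and Nextera XT, which do not mark strand, so antisense reads cannot be separated. All 24 count columns were used; 40 CUT&RUN samples and 4 reciprocal-cross morula samples were not analysed here.

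Counts were tested with edgeR 4.0.16 in R 4.3.3 (TMM, filterByExpr, robust quasi-likelihood, Benjamini-Hochberg adjustment over all genes tested, threshold 0.05), each stage apart, and with DESeq2 1.42.0 as an alternative; the test was checked on simulated counts. No replicate pair agreed within sampling noise. Described in full are members called in any test, members with at least 20 counts in a group whose groups do not overlap, and the 5 with the highest CPM in each control group; of other lists, called genes up to 4, or the 4 with the smallest p. The members and lists were chosen with earlier results of these data known. Other scalings, filters, a common fit of all stages, single-parent counts and leaving out each library were tried as alternatives. Levels per transcript length and protein sequences were not analysed here, and a few genes of the other lists are not reported here.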

Additional observations from a re-analysis of the deposited data

Results flagged for a closer look

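Of the 4 ExE matKO libraries, replicate 3 had an autosomal maternal share of 35.1%, farther from its group than the usual limit for 4 values; 7 such groups were checked, and chance alone marks about 1 in 20. The genotype effect on Irx2 differed between stages by test: it was lower in morula than in FGO by a log2 difference of -10.63, on 4 morula reads, and lower in ExE than in FGO by -10.09. Both sizes depend on the 0 counts of Irx2 in CTR oocytes.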

How the results depend on the processing

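In oocytes Irx2, Lhx5, Otx1, Shox2 and Barx1 were called under every one of 12 alternatives, and Msx2 under the 11 in which it was tested. The number called higher, 8 as reported, was 6 to 12 when 1 library was left out (6 without KO replicate 1, when 3.68% of all genes were called higher, and 12 without KO replicate 2, when 7.62% were). The number called lower, 0 as reported, was 1 (Prrx1) with no filter on low counts. In ExE DESeq2 called 1 gene higher (Six2), and leaving out 1 library gave 0. Of the stage differences, the morula count (1, Irx2) was 0 with DESeq2 size factors and 0 to 1 with 1 library left out, and the ExE count (1, Irx2) was 2 with DESeq2 (Irx1 added) and 1 to 2 with 1 library left out. Of the values of single genes under an alternative, 451 kept direction and side of the threshold, 32 gained a call, 12 lost one and 14, all of them uncalled, changed sign; the cause was not tested beyond the smaller number of libraries. With 1 library left out, the morula log2 changes ran from -0.12 to 0.70 for Six4, -2.91 to 0.14 for Otx2 and -0.55 to 0.46 for Gsc, and that of Gbx2 in CTR ExE against CTR morula from -0.25 to 6.21. The allelic estimates (log2 of paternal over maternal, matKO against CTR) ran from -1.44 to 0.81 for Gsc in morula, and in ExE from -0.10 to 0.068 for Irx2 and -0.45 to 0.13 for Dlx3. Without the allele scaling those of Irx2 and Dlx3 were 0.24 and 0.22. In embryos depth limits detection at about 1.78 to 2.31 CPM (morula) and 0.688 to 0.883 CPM (ExE).

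Replicate numbers are shared by 2 libraries a group, and no label says that they pair samples; same-numbered deviations correlated at 0.25 in FGO, 0.18 in morula and 0.25 in ExE. With the number as a block, 15 of the 45 were called higher (Six4, Irx1, Pax6, Pax9, Emx1, Emx2 and Gbx2 added) and 1 lower (Prrx1) in oocytes, where 9.60% of all genes were then called higher and 5.42% lower. In ExE replicates 1 and 2, 1 was called higher (Six2) and 2 lower (Irx2, Dlx3), against 5.73% of all genes higher and 4.95% lower; in morula the block changed no call.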

Other observations

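Other fixed lists of genes were also read in the oocyte fit, where 5.35% of all genes were called higher and 1.87% lower. Genes that passed the count filter only because KO reads were present had to lie above 0. Of 12 epiblast and mesoderm genes 6 were tested and 3 rose, namely Pou3f1, Fgf5 (log2 change 3.93, SE 0.87) and Sox1 (4.06, SE 0.82), with a median of 2.27 over the 6. Of 11 ectoplacental cone and giant cell genes 5 were tested and 3 rose. Ascl2, a trophoblast transcription factor, stood at 0.341 and 0.156 CPM in CTR and 10.2 and 4.80 in KO, Phlda2, a placental growth regulator, at 24.2 and 20.3 against 201 and 131, and Plac1 at 17.0 and 9.06 against 65.7 and 49.8. Of 39 PRC1 and PRC2 subunit genes 37 were tested, of which 4 rose and 2 fell. Pcgf1 (log2 change -5.56) and Pcgf6 (-1.14) fell, and Bcor (2.69, SE 0.40), Bcorl1 (1.25, SE 0.28) and Pcgf5 (1.02, SE 0.19) were among those that rose, by edgeR's quasi-likelihood test with an adjusted p under 0.05. None of these genes was called in morula or in ExE. Of 12 morula and pluripotency genes 8 were tested in oocytes, and 3 rose (Sox2, adjusted p = 0.0198, Klf4, log2 change 3.25, and Tfap2c, 1.23) and 1 fell (Gata3, -1.04). Of 12 ExE and trophoblast stem cell genes 8 were tested and 2 rose, and of 18 granulosa and stroma genes 9 were tested and 1 rose (Nr2f2, 1.79). Of 10 decidua and blood genes 3 were tested and 1 fell (Prl8a2, -1.25). In edgeR none of the 5 tested visceral endoderm genes (median log2 change -0.51) or of the 12 oocyte markers (-0.24) was called.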
